A study of Drosophila melanogaster with 10 samples.

Results

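The proteasome subunit genes of Drosophila melanogaster were taken as the genes whose FlyBase symbol starts with Prosalpha or Prosbeta, or with Rpn or Rpt followed by a digit. Of the 13937 genes in each RNA-seq table, 47 met this rule. They were split by symbol alone. The 15 whose symbol ends in T, T1, T2, R or R with a digit were taken as testis paralogues, and the other 32 as ubiquitous subunits. One more symbol of the name table met the rule, Prosalpha4T1, and it was not matched in the files and is not analysed here.

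The libraries came from S2 cells, a line derived from Drosophila embryos with features of hemocytes, the blood cells of the fly. In Elys-KD cells, double-stranded RNA (dsRNA) against the nucleoporin gene Elys was given for 3 days with a further treatment of 2 days. Control cells received dsRNA against LacZ, a bacterial gene that the fly genome lacks, on the same schedule. Poly(A+) RNA was sequenced from 2 biological replicates of each group of this 1 line. The labels do not say whether replicates were separate cultures, so p-values measure only the spread between these libraries. The estimated fragment counts summed to 58200996 and 57622326 in the Elys-KD libraries, against 68034643 and 61350395 in the control libraries.

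The 26S proteasome is the protease that degrades most ubiquitin-tagged proteins of the cytosol and nucleus. Its 20S core is a barrel of stacked rings of alpha and beta subunits. The alpha rings form the gate, and the beta rings carry the proteolytic sites inside the chamber. The 19S cap binds the ends of the barrel. Its base holds the ring of Rpt ATPases that unfold substrates and the ubiquitin receptors, and its lid removes ubiquitin. Subunit genes are known to be expressed together, since the particle needs all of them. Drosophila carries further copies of several subunits, and many of these are known for expression in the male germline.

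The targeted gene was examined first. Elys had 4.96 and 4.55 TPM (a level scaled for transcript length and for the total of the library) in the Elys-KD libraries, against 28.3 and 30.2 TPM in the control libraries. Both Elys-KD libraries were far below both control libraries, as their labels state. The log2 fold change of Elys, given here and below as Elys-KD over control, was -2.67 ± 0.05 (SE, n = 2 per group; adjusted p = 1.32e-06, by the edgeR quasi-likelihood method and Benjamini-Hochberg).

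All 32 ubiquitous subunit genes were well expressed in S2 cells, above 100 TPM in every library. Their mean levels over the 4 libraries ran between 119 and 678 TPM, a 5.72-fold range. Each had at least 7865 estimated counts in each library, and replicates lay close together. The coefficient of variation of the TPM between replicates had a median of 1.05% in Elys-KD and 0.894% in control. Its highest values were 3.61% in Elys-KD and 4.97% in control. These genes are spread over the genome, with 10 on chromosome arm 2R, 9 on 3R, 5 on 3L, 4 on X and 4 on 2L, by the Release 6 annotation. In that annotation, 16 of the 32 ubiquitous genes and 5 of the 15 paralogues overlap another gene. Whether counting used the strand is not given in the sources used here, so reads of overlapping genes may not be told apart.

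**Figure D1:**
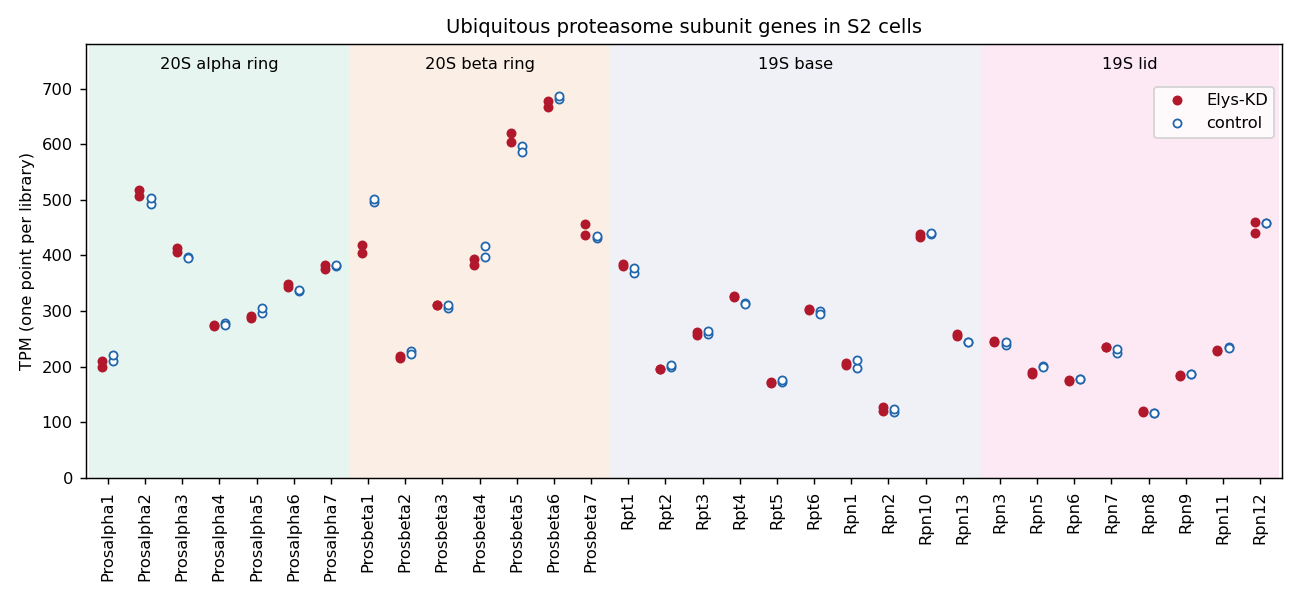
TPM of each of the 32 ubiquitous proteasome subunit genes (linear axis from 0), one point per library, with Elys-KD as filled circles left of control as open circles, grouped by subcomplex. Points of the 2 groups lie close together or overlap for the other 31 genes, and are well apart for Prosbeta1, where Elys-KD is at 404 and 418 TPM and control at 497 and 501 TPM.

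The alpha ring genes had a median level of 342 TPM. The highest of the 7 was Prosalpha2, a subunit of the outer ring, with 507 and 518 TPM in Elys-KD against 493 and 502 TPM in control. Its Elys-KD libraries were both above its control libraries in TPM by a margin no larger than the gap between replicates, with a log2 fold change of 0.03 ± 0.04 (SE, n = 2 per group; adjusted p = 0.603 in the edgeR fit). The lowest was Prosalpha1, with 200 and 211 TPM in Elys-KD against 211 and 220 TPM in control. Here the groups nearly met, and the log2 fold change was -0.08 ± 0.04 (SE, n = 2 per group; adjusted p = 0.240 in the edgeR fit). None of the 7 genes passed the edgeR test, and no unadjusted p was under 0.05 in edgeR or adjusted p under 0.05 in DESeq2 (a second count model).

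Genes of the beta ring reached higher levels, with a median of 440 TPM. Prosbeta6, a structural subunit without a proteolytic site, was the highest of all 32 ubiquitous genes, with 667 and 678 TPM in Elys-KD against 681 and 687 TPM in control. Its log2 fold change was -0.04 ± 0.03 (SE, n = 2 per group; adjusted p = 0.512 in the edgeR fit). The lowest of the ring was Prosbeta2, at 222 TPM on average, so that transcript levels within the ring spanned a 3.06-fold range. The other rings and subcomplexes spanned 2.40-fold (alpha ring), 3.56-fold (base) and 3.83-fold (lid).

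In the 19S base the median level was 256 TPM. Rpn10, a ubiquitin receptor, was the highest of its 10 genes, with 433 and 439 TPM in Elys-KD against 439 and 440 TPM in control. Rpn2, a large scaffold subunit, was the lowest, with 127 and 121 TPM in Elys-KD against 118 and 125 TPM in control. The groups overlapped for both genes, and the log2 fold changes were -0.04 for Rpn10 and -0.01 for Rpn2. The 6 ATPase genes Rpt1 to Rpt6, whose products form the unfolding ring, had a median log2 fold change of -0.02, with none past the test.

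The lid genes had the lowest median, 213 TPM. Rpn12 was the highest of the 8, with 441 and 461 TPM in Elys-KD against 458 and 458 TPM in control. Rpn8, which pairs with the deubiquitinating subunit Rpn11, was the lowest of all 32 genes, with 120 and 121 TPM in Elys-KD against 118 and 117 TPM in control. For Rpn12 the Elys-KD libraries stood on both sides of the control libraries, and for Rpn8 the Elys-KD libraries were higher by a few TPM. Their log2 fold changes were -0.04 and 0.01, and neither passed the edgeR test (adjusted p = 0.580 for Rpn12 and 0.912 for Rpn8, n = 2 per group).

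To ask whether depletion of Elys changed the expression of the proteasome, the 32 ubiquitous genes were read against all 9156 genes that passed the filter on low counts. At an adjusted p under 0.05, the edgeR quasi-likelihood test called 1 of the 32 ubiquitous genes, Prosbeta1, which was lower in Elys-KD. Over all tested genes it called 1523, or 16.6%, with 8.07% higher and 8.56% lower in Elys-KD. Among the 1198 tested genes with a mean level of 100 to 1000 TPM, the range in which these subunits lie, 22.2% were called. No ubiquitous gene was called higher by edgeR. None was called by edgeR with a mean TPM ratio over 1.5 in either direction (3.19% of all tested genes were). The study set this fold threshold on DESeq2 calls. With DESeq2 calls in place of edgeR, 208 of the tested genes and 0 of the ubiquitous genes met it. At an unadjusted p under 0.05, edgeR called 2 of the 32, Prosbeta1 and Rpn5, against 32.6% of all tested genes, and DESeq2 called the same 2 at an adjusted p under 0.05, against 14.4% of all tested genes. In bulk libraries such as these, fewer cells with a transcript and less of the transcript per cell cannot be told apart.

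The fold changes of the ubiquitous genes lay close together. Their median log2 fold change was -0.04 and their SD 0.06, and without Prosbeta1 the SD was 0.04. Over all tested genes the median was 0.00. Over the 1198 genes at 100 to 1000 TPM the median was -0.02 and the SD 0.14. By sign, 11 of the 32 were positive and 21 negative, beside 509 positive and 689 negative of those 1198. With scaling by library totals instead of TMM factors, genes at 100 to 1000 TPM had a median of 0.01 and all tested genes 0.03. The median of the ubiquitous genes was then -0.01. In normalised counts, both Elys-KD libraries were above both control libraries for 1 gene, Rpn13, and below them for 9 genes, and the groups overlapped for the other 22. Over all tested genes, 30.0% were above and 30.6% below by this measure. Of the 1198 genes at 100 to 1000 TPM, 307 were above and 491 below.

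The fit gave each of the other 31 ubiquitous genes a 95% interval, based on the spread between these libraries and relative to the TMM factors. Taken gene by gene, these intervals ran between 87.1% and 109% of the control level. The ubiquitous genes summed to 9887 and 10045 TPM in the Elys-KD libraries, against 10008 and 10063 TPM in the control libraries, a ratio of means of 0.993. They thus made up between 0.989% and 1.01% of the transcripts in each library. Summed by subcomplex, the ratio was 1.00 for the alpha ring, 0.972 for the beta ring, 1.01 for the base and 0.991 for the lid. With 2 libraries against 2, no exact two-sided permutation test can give a p under 0.333, so these sums are given without a test.

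**Figure D2:**
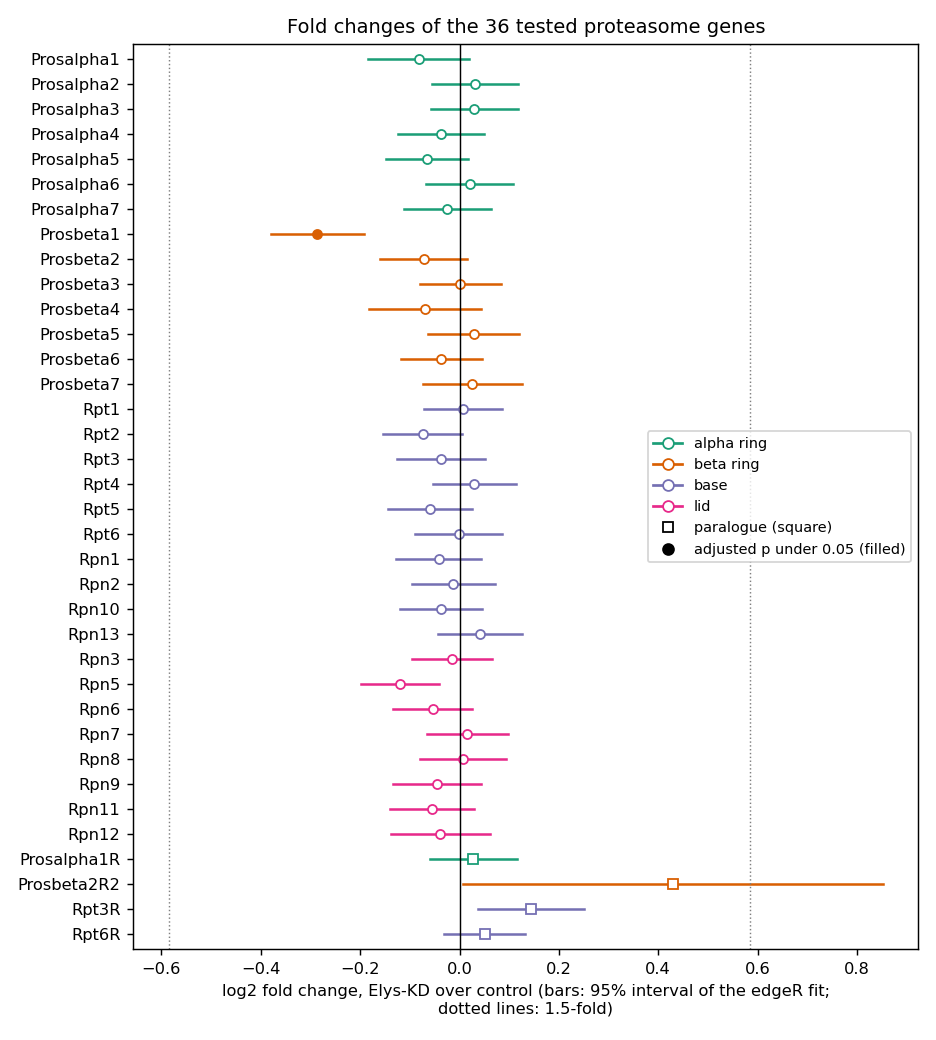
Log2 fold change of the 36 tested proteasome genes, Elys-KD over control, with 95% intervals from the edgeR fit, coloured by subcomplex, with circles for ubiquitous subunits, squares for paralogues and a filled symbol for an adjusted p under 0.05. Prosbeta1, at -0.29, is the filled symbol, and dotted lines mark a 1.5-fold difference, which no point reaches.

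Prosbeta1 encodes the catalytic beta subunit with caspase-like activity, which cuts after acidic residues. It had 404 and 418 TPM in Elys-KD against 497 and 501 TPM in control, from 13841 and 14529 estimated counts in Elys-KD and 20046 and 17886 in control. Both Elys-KD libraries were below both control libraries, at 81.0% and 83.8% of the control mean, while the control libraries were at 99.6% and 100.4% of it. The log2 fold change of Prosbeta1 was -0.29 ± 0.04 (SE, n = 2 per group; Benjamini-Hochberg adjusted p = 0.00490 in the edgeR quasi-likelihood fit). In the fit, its level was 82.0% of control, with a 95% interval of 76.9% to 87.5%. In fits that each omit 1 library the log2 fold change lay between -0.33 and -0.24, and Prosbeta1 passed the test in each of these fits, which assume that the group left with 1 library varies like the other. Of all tested genes, 332 had a lower adjusted p.

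The other subunits of the same ring did not show a difference of this size. The 95% intervals of the other 6 beta ring genes began at 88.2% of control or above. Summed without Prosbeta1, the ring had 2620 and 2677 TPM in Elys-KD against 2661 and 2639 TPM in control, a ratio of 0.999. The difference in response between Prosbeta1 and the rest of the ring was not itself tested. Genes next to Prosbeta1 in the Release 6 gene order were not called either. CG8389, which overlaps Prosbeta1 in that annotation, had 20.8 and 20.6 TPM in Elys-KD against 20.3 and 19.7 TPM in control (log2 fold change 0.02, edgeR adjusted p = 0.826, n = 2 per group). Rrp42, which encodes an exosome component and follows Prosbeta1, had a log2 fold change of -0.13 (edgeR unadjusted p = 0.0363, adjusted p = 0.125, n = 2 per group). Its 95% interval was 84.1% to 99.2% of control, and both Elys-KD libraries were below both control libraries in normalised counts. CG8388, next to Prosbeta1 on the other side, had a log2 fold change of -0.08 (edgeR adjusted p = 0.405, n = 2 per group).

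**Figure D3:**
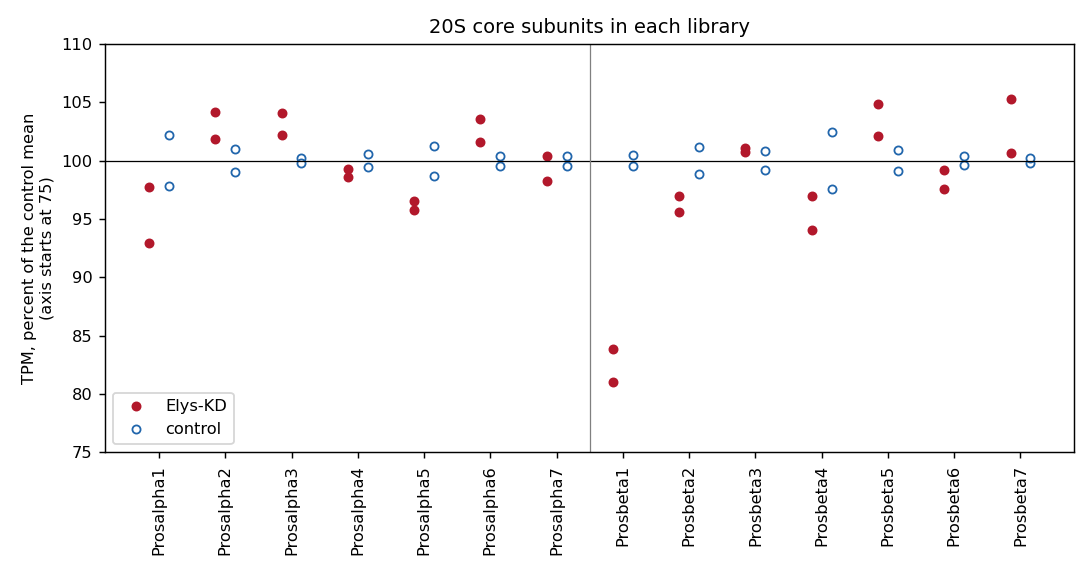
TPM of the 14 ubiquitous 20S core genes in each library as a percent of the gene's control mean (axis starting at 75%), with Elys-KD as filled circles left of control as open circles. Prosbeta1 is at 81.0% and 83.8% in the Elys-KD libraries, below every other point.

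The other catalytic subunits of the core are Prosbeta2, with trypsin-like activity, and Prosbeta5, with chymotrypsin-like activity. Prosbeta2 had 219 and 216 TPM in Elys-KD against 229 and 224 TPM in control. Both Elys-KD libraries were below both control libraries, and the log2 fold change of Prosbeta2, -0.07 ± 0.04 (SE, n = 2 per group), did not pass the test (edgeR adjusted p = 0.230). Prosbeta5 had 604 and 620 TPM in Elys-KD against 597 and 586 TPM in control. Its Elys-KD libraries were the higher ones in TPM, and its log2 fold change of 0.03 ± 0.04 (SE, n = 2 per group) did not pass the test either (edgeR adjusted p = 0.659). The 95% intervals were 89.5% to 101% of control for Prosbeta2 and 95.7% to 109% for Prosbeta5, both above the interval of Prosbeta1.

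Rpn5, a scaffold subunit of the lid, was the ubiquitous gene nearest to the threshold after Prosbeta1. It had 191 and 187 TPM in Elys-KD against 201 and 200 TPM in control. The groups did not overlap, and the log2 fold change was -0.12 ± 0.03 (SE, n = 2 per group). This gave an adjusted p of 0.0518 in edgeR, which misses the threshold, and of 0.0184 in DESeq2, which passes it. Of the 32 ubiquitous genes, Prosbeta1 and Rpn5 had a fitted log2 fold change beyond 0.1 in size, and theirs were the 2 intervals that did not hold 0.

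The 15 paralogues split into a few expressed genes and many that were at or near 0, so the label of testis paralogue was not borne out by expression in this line for every member. Only 4 of the 15 passed the filter on low counts, Prosalpha1R, Rpt6R, Rpt3R and Prosbeta2R2, and each had over 90 estimated counts in every library. The other 11 did not pass it and were not tested in the main fit. None of the 4 tested paralogues was called by edgeR at an adjusted p under 0.05, beside 16.6% of all tested genes. At an unadjusted p under 0.05, edgeR called 2 of them, Rpt3R and Prosbeta2R2, beside 32.6% of all tested genes. At an adjusted p under 0.05, DESeq2 called 0 of them, beside 14.4%.

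**Figure D4:**
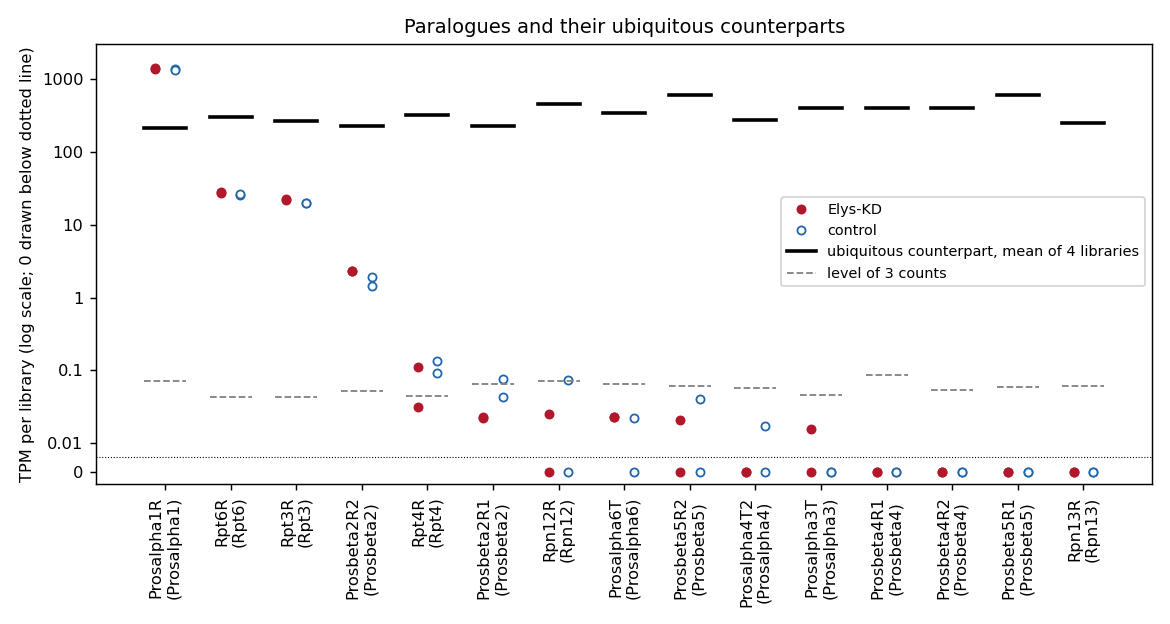
TPM of the 15 paralogues (log axis, with 0 drawn below the dotted line), one point per library, Elys-KD as filled circles left of control as open circles, with a bar at the mean level of the ubiquitous counterpart and a dashed line at the level of 3 counts. Prosalpha1R lies above its counterpart, Rpt6R, Rpt3R and Prosbeta2R2 lie below theirs, and the other 11 are at or near the level of 3 counts or at 0.

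Prosalpha1R, a copy of the alpha ring gene Prosalpha1, had 1369 and 1393 TPM in Elys-KD against 1364 and 1320 TPM in control. That was above every ubiquitous subunit gene and on average 647% of the level of Prosalpha1 itself. The Elys-KD libraries were the higher ones in TPM by a margin smaller than the gap between replicates, with a log2 fold change of 0.03 ± 0.04 (SE, n = 2 per group; adjusted p = 0.647 in the edgeR fit). How fragments were divided between the copies is uncertain. Both genes had fractional estimated counts in all 4 libraries, as occurs where Salmon divides fragments that match more than one gene, though the tables do not show between which genes. In the Release 6 order they lie on 2R with 1 gene, CG18853, between them. CG18853 overlaps Prosalpha1R and phr overlaps Prosalpha1, and both of these had fractional counts as well. Of the counts of the pair, Prosalpha1 held 12.9% and 13.3% in Elys-KD against 13.6% and 14.4% in control.

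The pair was also taken as 1 feature, which removes any division between the copies but not any sharing with phr or CG18853. Prosalpha1 and Prosalpha1R summed to 1569 and 1604 TPM in Elys-KD against 1575 and 1540 TPM in control. This was between 3.07 and 3.20 times the level in the same library of Prosalpha2, the highest of the other alpha ring genes. The fit with the counts of the pair summed, which was chosen after seeing the data, gave a log2 fold change of 0.01 ± 0.04 (SE, n = 2 per group; edgeR adjusted p = 0.831).

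Rpt6R and Rpt3R, copies of ATPase genes of the base, were expressed well below their counterparts but far above 0. Rpt6R had 27.9 and 27.3 TPM in Elys-KD against 25.8 and 26.4 TPM in control, on average 8.95% of the level of Rpt6. Its log2 fold change was 0.05 ± 0.03 (SE, n = 2 per group; adjusted p = 0.357 in the edgeR fit), with both Elys-KD libraries above both control libraries. Rpt3R had 22.0 and 22.8 TPM in Elys-KD against 19.96 and 19.78 TPM in control. It too was higher in both Elys-KD libraries, at 8.57% and 8.65% of the level of Rpt3 in Elys-KD and 7.73% and 7.47% in control. The log2 fold change of Rpt3R was 0.14 ± 0.04 (SE, n = 2 per group), which misses the threshold with TMM factors (edgeR adjusted p = 0.0737) and passes it with library totals (edgeR adjusted p = 0.0443). In Release 6, Rpt3R overlaps another gene, Alg12, and Rpt6R overlaps none.

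Prosbeta2R2, a copy of the trypsin-like subunit gene, stood lower still. It had 2.30 and 2.28 TPM in Elys-KD against 1.42 and 1.93 TPM in control, from 125 and 126 estimated counts in Elys-KD and 92 and 111 in control. Both Elys-KD libraries were above both control libraries, and its level was 1.05% and 1.05% of that of Prosbeta2 in Elys-KD, against 0.620% and 0.864% in control. The log2 fold change of Prosbeta2R2 was 0.43 ± 0.18 (SE, n = 2 per group) and did not pass the test (edgeR adjusted p = 0.148), and in fits that each omit 1 library it ran between 0.23 and 0.65. At these counts a difference of this size was not separated from the spread between replicates.

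The other 11 paralogues were barely read or not read. Rpt4R, a copy of the ATPase gene Rpt4, had 7 and 2 estimated counts in Elys-KD against 10 and 6 in control, on average 0.0290% of the level of Rpt4. The remaining 10 had at most 4 counts in every library. Of these, Prosbeta4R1, Prosbeta4R2, Prosbeta5R1 and Rpn13R had 0 counts in all 4 libraries. For these 4 and the other paralogues at or near 0, a level of 3 counts lay between 0.0405 and 0.0898 TPM per library, which is the level that a count of 0 allows and covers counting error only. Prosalpha3T, Prosalpha4T2 and Prosalpha6T, copies of alpha ring genes, never had more than 1 count in a library. Prosbeta2R1 had 1 and 1 counts in Elys-KD against 4 and 2 in control, Prosbeta5R2 had 0 and 1 in Elys-KD against 0 and 2 in control, and Rpn12R had 0 and 1 in Elys-KD against 0 and 3 in control. Counts this low in both groups were too few to show a small difference, or a fall in Elys-KD, for these 11 genes. None of them had more than 7 counts in an Elys-KD library.

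Summed without Prosalpha1R, the paralogues made up 52.3 and 52.5 TPM in Elys-KD against 47.4 and 48.4 TPM in control, a ratio of 1.09, nearly all of it from Rpt6R and Rpt3R. With Prosalpha1R the sums were 1421 and 1446 TPM in Elys-KD against 1411 and 1368 TPM in control, a ratio of 1.03. These sums are given without a test.

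**Figure D5:**
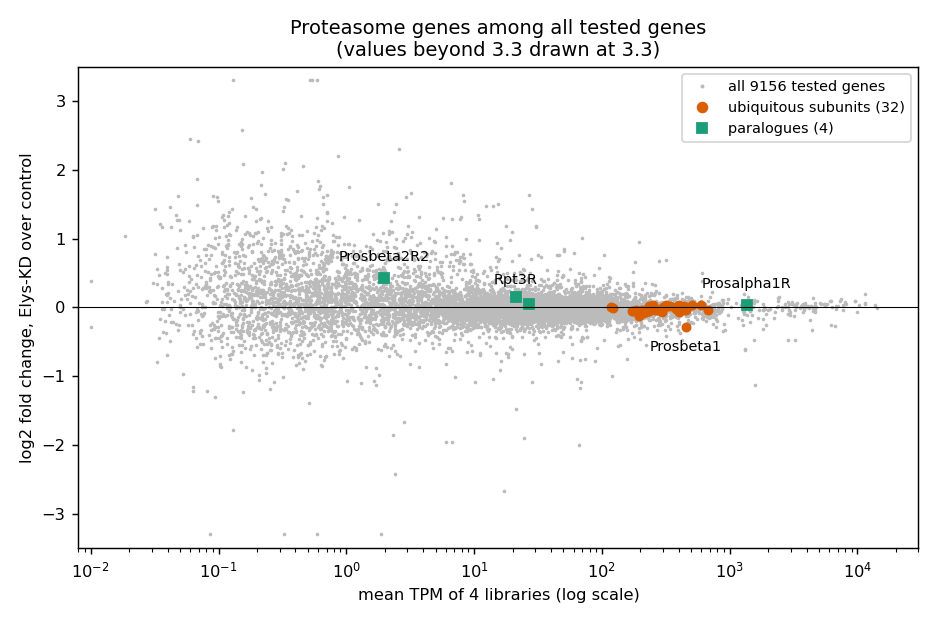
Log2 fold change, Elys-KD over control, against mean TPM of the 4 libraries (log axis) for all 9156 tested genes in grey, with the 32 ubiquitous subunits as orange circles and the 4 tested paralogues as green squares. The ubiquitous subunits lie between 119 and 678 TPM in a narrow band around 0, with Prosbeta1 below it at -0.29.

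Genes that work with the proteasome were examined as lists. Of 5 tested genes for assembly and regulation (Pomp, PI31, REG, Usp14 and Uch-L5), 1 was called lower and none higher by edgeR (8.56% of all tested genes were called lower), with a median log2 fold change of -0.08. At an unadjusted p under 0.05 there were 2, beside 32.6% of all tested genes, and DESeq2 called 1, beside 14.4%. The 2 were Uch-L5 and Usp14, and Usp14 was not called (log2 fold change -0.10, edgeR adjusted p = 0.0939, n = 2 per group). In normalised counts, both Elys-KD libraries were below both control libraries for 4 of the 5 genes and above for 1. Over all tested genes, 30.6% were below and 30.0% above. The called gene was Uch-L5, a deubiquitinase of the 19S cap known to bind Rpn13, with 92.6 and 94.5 TPM in Elys-KD against 103 and 102 TPM in control. Its log2 fold change was -0.18 ± 0.04 (SE, n = 2 per group; edgeR adjusted p = 0.0258). This call did not hold without control replicate 1 (log2 fold change -0.16, adjusted p = 0.115 in the edgeR fit), control replicate 2 (-0.20, 0.0728) or Elys-KD replicate 1 (-0.14, 0.0844). Pomp, the maturation factor of the core, had 239 and 252 TPM in Elys-KD against 252 and 254 TPM in control and was not called (edgeR adjusted p = 0.367, n = 2 per group).

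Among 6 tested genes of substrate delivery, 1 was called higher and none lower by edgeR (16.6% of all tested genes were called in either direction), with a median log2 fold change of 0.03. At an unadjusted p under 0.05 there were 3, beside 32.6% of all tested genes, and DESeq2 called 2, beside 14.4%. In normalised counts, both Elys-KD libraries were above both control libraries for 3 of the 6 genes and below for 1, Rad23. Over all tested genes, 30.0% were above and 30.6% below. Rad23 had a log2 fold change of -0.13 ± 0.04 (SE, n = 2 per group) and narrowly missed the threshold (edgeR adjusted p = 0.0521). The gene called by edgeR was ref(2)P, the fly counterpart of the mammalian autophagy receptor p62, with 142 and 139 TPM in Elys-KD against 120 and 124 TPM in control. The groups did not overlap, and the log2 fold change of ref(2)P was 0.16 ± 0.03 (SE, n = 2 per group; edgeR adjusted p = 0.0215). This call was lost without control replicate 1 (log2 fold change 0.15, adjusted p = 0.154 in the edgeR fit) or control replicate 2 (0.17, 0.114). None of the 5 tested genes for ubiquitin and its activation was called by edgeR, 1 had an unadjusted p under 0.05, and DESeq2 called 0.

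The transcription factor encoded by cnc is known in flies to drive proteasome genes when the proteasome is impaired, with maf-S as its partner and Keap1 as its inhibitor. All 3 genes were above control in both Elys-KD libraries, in normalised counts, as were 30.0% of all tested genes. The log2 fold changes were 0.12 for cnc, 0.11 for maf-S and 0.28 for Keap1. None passed the edgeR test at an adjusted p under 0.05 (0.0871, 0.0852 and 0.0887, n = 2 per group). All 3 had an unadjusted p under 0.05, beside 32.6% of all tested genes, and DESeq2 called 1, beside 14.4%.

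Other large complexes gave a scale for these counts. Over all tested genes, edgeR called 8.07% higher and 8.56% lower, 32.6% had an unadjusted p under 0.05, and DESeq2 called 14.4%. The COP9 signalosome, a complex related to the lid in its subunits, had 0 of 8 genes called by edgeR (2 at an unadjusted p under 0.05, 0 by DESeq2), with a median log2 fold change of 0.04. The CCT chaperonin had 0 of 7 called (0 at an unadjusted p under 0.05, 0 by DESeq2), with a median of 0.00. Of 83 tested cytoplasmic ribosomal protein genes, 4 were called higher (RpL39, RpL26, RpL27 and RpS26) and 4 lower (RpS19a, RpS19b, RpS3A and RpL38) by edgeR. In that list 19 had an unadjusted p under 0.05, and DESeq2 called 10. Of 71 tested mitochondrial ribosomal protein genes, mRpL14 was called higher and mRpS7 lower by edgeR (8 at an unadjusted p under 0.05, 1 by DESeq2). No difference between these lists and the proteasome was tested.

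The cell type was checked against marker lists. Of 10 hemocyte markers, srp and crq were at 71.8 and 99.7 TPM on average, and NimC1 had at most 1 count in a library. Their summed level was 314 and 295 TPM in Elys-KD against 267 and 279 TPM in control. Of the 9 that passed the filter on low counts, Pxn, ush and eater were called higher by the edgeR test, beside 8.07% of all tested genes. The gene He had 26 and 21 counts in Elys-KD against 11 and 12 in control. It passed the filter through its Elys-KD libraries, so its values are given without a test. The call of eater was near the threshold (edgeR adjusted p = 0.0455, n = 2 per group). The list was split, since Hml, Col4a1 and vkg had log2 fold changes of -0.24, -0.14 and -0.13, none past the test, and both Elys-KD libraries were below both control libraries for Col4a1 and vkg. Of 12 testis markers, can, sa, nht, aly, comr and the sperm gene dj had at most 7 counts in a library and Mst98Ca had 0 in all. Others were read, with means of 17.0 TPM for mia, 8.93 for ntc, 6.09 for topi and 0.677 for tomb, and bam had 46.2 and 43.2 TPM in Elys-KD against 53.4 and 54.8 TPM in control. The testis markers summed to 79.1 and 75.5 TPM in Elys-KD against 85.8 and 88.6 TPM in control, and bam fell by 0.31 on the log2 scale (edgeR adjusted p = 0.00241, n = 2 per group). Of 3 germline markers, osk rose and piwi fell by the edgeR test, both at a few TPM or less, and aub, at 71.7 TPM on average, did not pass it. Neuron, muscle and fat body markers summed to at most 4.34, 0.241 and 0.476 TPM in a library. The 3 tested neuron markers were split. Of these, brp, a synaptic gene, was called higher, and Syt1 was not called (log2 fold change 0.33, edgeR adjusted p = 0.669, n = 2 per group). The highest neuron marker, elav, at 3.15 TPM on average, was lower in both Elys-KD libraries than in both control libraries. Its log2 fold change of -0.29 did not pass the test (edgeR adjusted p = 0.0548, n = 2 per group). The part of these markers in the levels of the proteasome genes was not tested.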

How the data were processed

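Poly(A+) RNA-seq of S2 cells was used, 2 Elys-KD and 2 control libraries, grouped by the labels. The authors mapped reads to the dm3/R5 genome and used Salmon (version not given in the sources used here) on FlyBase r5.57 genes. They deposited, per gene, the estimated count, which is not normalised, and the TPM, along with the gene length and effective length in bp. The DamID-seq domains of embryos were not used here, since they name no genes.

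Symbols were matched for 13389 of 13937 gene identifiers with a FlyBase name table, and RefSeq Release 6 gave only chromosome arms and gene neighbours. The members and lists were chosen with earlier results of these data known. Of the other genes listed, Sem1, TER94, CCT8, rye, vas, nos and wupA were not matched and are not analysed here.

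Estimated counts were rounded and filtered with filterByExpr (9156 genes kept). They were fitted with edgeR 4.0.16 (R 4.3.3), using TMM factors, glmQLFit and glmQLFTest, without a replicate block, where the study used DESeq2. P-values were adjusted by Benjamini-Hochberg over all genes tested, and a gene was called at an adjusted p under 0.05. The study's rule also asks for a mean TPM ratio over 1.5. Levels are TPM, and normalised counts are CPM with TMM factors. Counts were simulated with the mean counts and depths of these libraries. In them the edgeR test called 49 of 50 genes changed 1.25-fold, all 50 changed 1.5-fold and 6 of 8966 unchanged genes. The spread between simulated replicates was a set value shared by all genes, not taken from the data. Changed genes were drawn only from those with high counts. These rates therefore do not measure the sensitivity of the real libraries, nor that for genes at low counts such as Prosbeta2R2. The depth was 57622326 to 68034643 estimated counts per library, so precision depends on each gene's count.

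Genes named were Elys, called members, the highest and lowest ubiquitous member of each subcomplex, the catalytic subunits, paralogues with at least 10 counts in a library, and called genes of the lists. Rpn5, Pomp and the Cnc pathway genes, the neighbours of members, and paralogues under 10 counts were named after their values were seen. So were Rad23 and Usp14 of the lists, and the markers elav and Syt1. Alternatives were DESeq2 1.42.0, limma 3.58.1 on log2(TPM + 1), RLE factors, library totals, no filter, an effective length offset, the replicate block, other ratio thresholds, and each library left out in turn.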

Additional observations from a re-analysis of the deposited data

How the results depend on the processing

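The count over all genes, 1523 at an adjusted p under 0.05, ran between 749 and 1511 with each library left out in turn, at 852 without control replicate 1 and 749 without control replicate 2. With the rule on mean TPM ratio added, 292 genes passed, 217 to 332 with a library left out, and 110 at a ratio over 2. With library totals in place of TMM, 63.1% of called genes were higher in Elys-KD, against 48.5% in the main fit, and limma on log2(TPM + 1) gave 64.7%. Without the filter, 1072 of 12514 genes were called.

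Prosbeta1 was called in every setting run, with a log2 fold change between -0.33 and -0.24. Among the ubiquitous genes DESeq2 called 2, Prosbeta1 and Rpn5, and a ratio over 1.2 gave 1, Prosbeta1, in place of 0 at 1.5. Among the paralogues, library totals called 1, Rpt3R, in place of 0. The median log2 fold change of the ubiquitous genes ran between -0.06 and -0.00 with a library left out. Their summed level, at a ratio of 0.993 in TPM, was 0.981 in TMM-scaled counts and 0.985 to 1.00 with a library left out. The paralogues' sum, at 1.03, was 1.09 without Prosalpha1R and 1.02 to 1.05 with a library left out. Elys stayed between -2.71 and -2.62 with a library left out. The cause of these differences was not tested.

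The replicate numbers are not known to pair the samples. Deviations of same-numbered libraries correlated at -0.0865 across genes for each number. With the replicate block, 1104 genes, 1 ubiquitous gene (Prosbeta1) and 0 paralogues were called, and Uch-L5 and ref(2)P were not (edgeR adjusted p = 0.0514 and 0.0921). In the main fit, 11 of the 15 paralogues were not tested, since their counts did not pass the filter. Without the filter, those with any count were tested too, and 0 paralogues were called. The 4 without a count in any library allow no test.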

Other observations

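Genes on one side of Prosalpha6T in the Release 6 gene order had more counts in both Elys-KD libraries than in both control libraries, while Prosalpha6T itself stayed at 1 and 1 counts in Elys-KD against 0 and 1 in control. CG16815, the gene next to it on one side, had 52 and 44 estimated counts in Elys-KD against 2 and 3 in control. CG16813 had 14 and 31 counts in Elys-KD against 0 and 1 in control, and CG15480 had 24 and 23 counts in Elys-KD against 7 and 4 in control. These 3 genes passed the filter on low counts through their Elys-KD libraries, so their values are given without a test. Mabi, next to Prosalpha6T on the other side, had 0 and 4 counts in Elys-KD against 1 and 3 in control. These genes were named after their values were seen.

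CG18853, the gene between Prosalpha1 and Prosalpha1R, overlaps Prosalpha1R in Release 6. It had 115 and 113 TPM in Elys-KD against 94.8 and 92.8 TPM in control, with a log2 fold change of 0.26 ± 0.04 (SE, n = 2 per group; edgeR adjusted p = 0.00456), and its estimated counts were fractional too. How much of the level of CG18853 belongs to its neighbours was not tested.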
